A study of Bos taurus with 6 samples.

Results

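The genes that make glycerol 3-phosphate and build it into triglyceride were examined in the longissimus dorsi, the long muscle of the back. The 10 genes were chosen by name for their place in this pathway, namely GPD1, GPD2, GK, GPAM, AGPAT2, AGPAT3, LPIN1, LPIN2, DGAT1 and DGAT2. They are 10 of the 18010 genes listed, and each was found under 1 gene identifier. RNA-Seq was carried out on 3 Shandong black cattle (B1 to B3), a breed that combines Japanese black, Luxi and Bohai black cattle, and on 3 Luxi cattle (L1 to L3), a local yellow cattle breed. All 6 animals were 18 months old, with 1 library each, and the breeds came from different suppliers, so breed and origin cannot be told apart. The labels give no sex, and the level of XIST, a marker of female cells given below, separated the animals exactly as breed does.

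Triglyceride is stored fat, and most cells make it on a glycerol 3-phosphate backbone. The backbone comes from the glycolytic intermediate dihydroxyacetone phosphate or from free glycerol. Acyltransferases add fatty acids to it, a lipin removes the phosphate to give diacylglycerol, and a diacylglycerol acyltransferase adds the last fatty acid. In muscle the product lies partly in lipid droplets inside the fibres and partly in the fat cells between them, which form the marbling of beef.

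The level of a gene is given as FPKM, fragments per kilobase of transcript scaled to the size of the library, summed over the transcripts of the gene. FPKM is per length, so levels of different genes can be set side by side. The aligned sequence of a library came to 14.1 to 14.6 gigabases in Shandong black cattle and to at least 17.5 in each Luxi animal. Fold changes are Luxi over Shandong black cattle, from limma on log2(FPKM + 1) over 9781 genes with a mean of at least 1 in a breed, and on this scale the change of low genes is understated. A gene was called differentially expressed when its Benjamini-Hochberg adjusted p was under 0.05 and its log2 fold change was 1 or more in size. With 3 animals against 3, the smallest two-sided p of an exact permutation test on 1 gene is 0.1. The limma p-values rest on the spread between these animals, with the variance of each gene drawn towards a trend over all genes tested.

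The libraries differed in their cell markers as well. The skeletal muscle markers ACTA1, CKM, DES, MB and TTN were high in every animal, with a summed FPKM of 45171 to 53920 in Shandong black and 22763 to 70136 in Luxi cattle, and the lowest sum was that of L1. All 6 fat cell markers (ADIPOQ, FABP4, PLIN1, CIDEC, LEP and CFD) had a log2 fold change below 0 and 4 of them were called lower in Luxi cattle, with a summed FPKM of 111 to 180 against 4.79 to 18.7. The summed FPKM of the 7 fast fibre markers was 1726 to 4093 in B1 to B3, 3968 in L1, 23711 in L2 and 21405 in L3. All 7 had a log2 fold change above 0 and the breeds did not overlap in 3, but none of the 7 was called. Of the 6 slow fibre markers 5 had a log2 fold change below 0, and 1 (TNNI1) was called lower. MYL3 was the 1 above 0, at 3.33, the largest of the 6 in size. It did not overlap between the breeds and was not called. The summed FPKM of the 6 was 25446 to 31637 in Shandong black and 3165 to 13062 in Luxi cattle, without overlap. MYL2 was the largest part of this sum in every animal. The endothelial markers PECAM1 and CDH5 had a summed FPKM of 11.0 to 11.95 against 16.3 to 43.8, without overlap. L1 had the highest sum, and neither gene was called. Macrophage markers were at 5.65 to 8.80 against 3.50 to 8.25 and fibro-adipogenic markers at 68.1 to 98.6 against 91.4 to 153. Markers of blood and liver stayed at a summed FPKM of 1.11 or less in all animals, and the satellite cell marker MYF5 was at 0.61 to 2.22. In bulk tissue, fewer cells of a type and less RNA per cell cannot be told apart, and the part of these shifts in the results for the pathway was not tested.

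All 10 genes passed the filter on FPKM, and none of the 10 was called, where 2.57% of all genes tested were. At an unadjusted p under 0.05 there were 5 genes, against 21.8% of all genes tested. The animals of the breeds did not overlap in 5 of the 10 genes, against 29.1% of all genes tested. Of these, GPD1, GPD2 and LPIN1 were higher in all Luxi animals (20.0% of all genes tested) and GK and DGAT2 were lower in all of them (9.13%). The median log2 fold change of the 10 genes was 0.23, beside 0.13 for all genes tested. A median of 0.13 means that values as deposited lay slightly higher in Luxi cattle over the 9781 genes tested (0.02 over 18001 genes without the filter), and with median-of-ratios size factors that median was 0.02. No gene of the 10 changed its direction with size factors, quantile normalization or TPM.

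**Figure D1:**
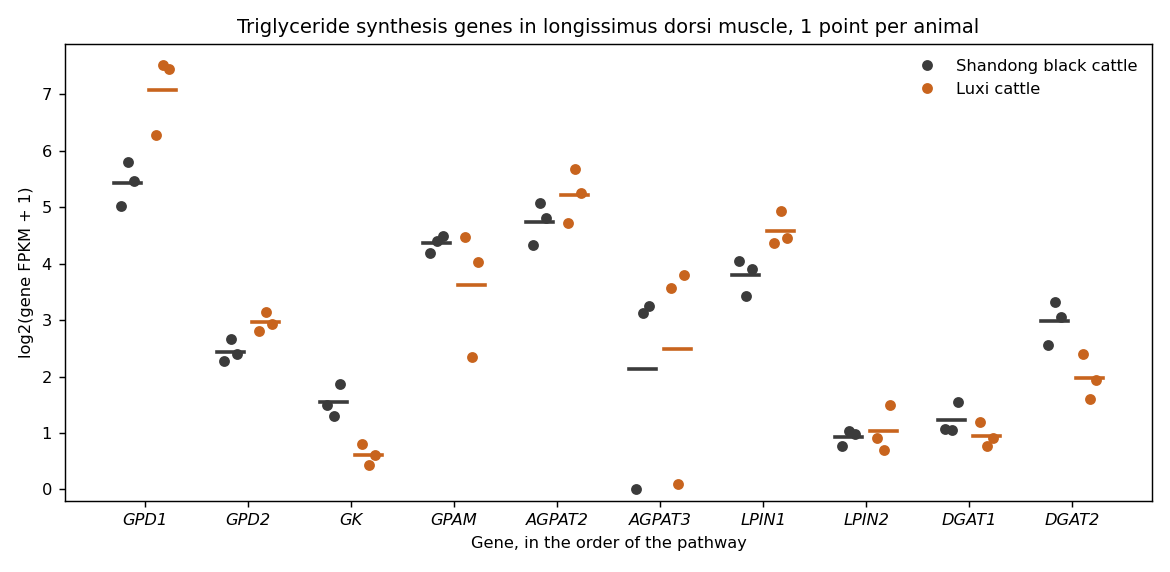
Level of the 10 genes as log2(FPKM + 1), with 1 point per animal and a bar at the mean of each breed (n = 3). Shandong black cattle are dark and Luxi cattle orange. GPD1, GPD2, GK, LPIN1 and DGAT2 show no overlap between the breeds, and AGPAT3 is near 0 in 1 animal of each breed.

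The order of the levels was led by GPD1 in both breeds. In Shandong black cattle GPD1 was followed by AGPAT2, GPAM, LPIN1, DGAT2, AGPAT3, GPD2, GK, DGAT1 and LPIN2, from a mean FPKM of 43.1 down to 0.91. Neighbours in this order that did not separate in every pair of animals were GPD1 and AGPAT2, AGPAT2 and GPAM, DGAT2 and AGPAT3, AGPAT3 and GPD2, and GK and DGAT1. The order of Luxi cattle was GPD1, AGPAT2, LPIN1, GPAM, AGPAT3, GPD2, DGAT2, LPIN2, DGAT1 and GK, from 143 down to 0.54. There GPD1 stood above AGPAT2 in every pair of animals, GPD2 above DGAT2 and DGAT2 above LPIN2, and all other neighbours overlapped. DGAT2 stood next to LPIN1 in the order of Shandong black cattle and was below GPD2 in every Luxi animal.

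GPD1 is the cytosolic glycerol 3-phosphate dehydrogenase, which makes glycerol 3-phosphate from dihydroxyacetone phosphate. It lies on the minus strand of chromosome 5, from 29789222 to 29794805 (ARS-UCD1.2). Its FPKM was 31.4, 54.7 and 43.2 in B1, B2 and B3, and 76.2, 182 and 173 in L1, L2 and L3. Every Luxi animal was above every Shandong black animal, with L1 closest to them. The means were 43.1 ± 11.6 and 143 ± 58.4 (SD, n = 3 each), a ratio of 3.33. The log2 fold change was 1.65 (SE 0.41, 95% confidence interval 0.70 to 2.60), and the adjusted p of limma was 0.0810. GPD1 was called with TPM (log2 fold change 1.54, adjusted p = 0.0465) and without L1 (2.05, adjusted p = 0.0180). It was called under no other alternative, with 1.41 (adjusted p = 0.138) for reference transcripts only and the highest adjusted p, 0.269, without B1.

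The exons of GPD1 were compared on the deposited read depth, summed over all transcripts of the strand and divided by the aligned gigabases, which is the scale of FPKM. The ratio of the breed means lay between 2.32 and 4.07 over the 8 exons, and the breeds did not overlap in 7 of them. The exception was exon 4, where B2 had 67.2 and L1 had 60.6. In all 3 Luxi animals, and in none of the Shandong black animals, the assembly listed a further transcript of 5 exons and 1168 bases that lacks exons 2, 3 and 4 of the 8-exon reference (458 bases). Its FPKM was 13.5, 20.6 and 27.9 in L1, L2 and L3, or 17.7, 11.3 and 16.1% of the gene. Exons 2, 3 and 4 had ratios of 3.17, 2.70 and 2.32, exon 1 had 4.07 and exons 5 to 8 had 2.86, 3.15, 3.89 and 3.55. The annotated gene LOC104972400 covers GPD1 on the opposite strand, and its own FPKM was at most 0.20 in every animal.

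GPD2 is the mitochondrial enzyme that turns glycerol 3-phosphate back into dihydroxyacetone phosphate and passes the electrons to the respiratory chain. It lies on the minus strand of chromosome 2, from 39647467 to 39802943. Its FPKM was 3.83, 5.31 and 4.26 in B1, B2 and B3, and 6.01, 7.79 and 6.60 in L1, L2 and L3, without overlap. Luxi exceeded Shandong black cattle by a log2 fold change of 0.52 (SE 0.19) with an limma adjusted p of 0.165. This difference rested on assembled transcripts, which carried 39.3, 69.7 and 57.8% of the FPKM in L1, L2 and L3 and 0, 8.07 and 0% in B1, B2 and B3. With reference transcripts only, GPD2 was at 3.83, 4.88 and 4.26 in Shandong black cattle and at 3.65, 2.36 and 2.79 in Luxi cattle, and the log2 fold change turned to -0.44 (adjusted p = 0.247).

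The ratio of GPD1 to GPD2 within an animal depends on the scaling of the library only through the 0.1 added to each FPKM. As log2(FPKM + 0.1) of GPD1 minus that of GPD2 it was 3.001, 3.34 and 3.31 in B1, B2 and B3, and 3.64, 4.52 and 4.69 in L1, L2 and L3. The breeds did not overlap, and the ratio was 9.31 on average in the Shandong black and 19.5 in the Luxi animals. The exact two-sided permutation p was 0.1, the smallest possible, and 0.167 after Benjamini-Hochberg adjustment over the 5 ratios compared. The difference between the breeds was 1.07 on the log2 scale, and 1.99 with reference transcripts only. The latter leaves out the assembled transcripts, which carried 39.3 to 69.7% of GPD2 in the Luxi animals and 0 to 8.07% in the Shandong black animals.

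GK, glycerol kinase, phosphorylates free glycerol and so feeds glycerol 3-phosphate into the pathway without glycolysis. It is the only X-linked gene of the 10, on the minus strand of chromosome X from 112859360 to 112935548. Its FPKM was 1.82, 1.46 and 2.64 in B1, B2 and B3, and 0.75, 0.35 and 0.52 in L1, L2 and L3. All Luxi animals lay below all Shandong black animals, and the ratio of the means was 3.65 in favour of Shandong black cattle. This gave a log2 fold change of -0.94 (SE 0.21, 95% confidence interval -1.42 to -0.45) with an limma adjusted p of 0.0615. GK passed both thresholds with size factors (-1.01, adjusted p = 0.0490), with quantile normalization (-1.04, adjusted p = 0.0410) and without L1 (-1.03, adjusted p = 0.0412). It was called under no other alternative, and the highest adjusted p was 0.238, without B3. GK had 6 reference transcripts listed, and 2 of them, both of 21 exons, reached an average FPKM of 0.5 in a breed. The transcript rna77602 of 3881 bases was at 1.03, 1.12 and 0.83 in Shandong black cattle, at 0.19 in L1 and below 0.001 in L2 and L3. The transcript rna77604 of 2013 bases was at 0.79, 0.11 and 0.995 in B1, B2 and B3, and at 0.26, 0.12 and 0.50 in L1, L2 and L3. For rna77604 the breeds overlapped, and B2 lay below every Luxi animal.

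XIST, the RNA of the inactive X chromosome in female cells, was at an FPKM of 10.7, 4.83 and 14.0 in B1, B2 and B3 and at 0, 0 and 0.21 in L1, L2 and L3. Its level therefore separates the animals exactly as breed does, and the 2 cannot be told apart for GK or for any other gene given here. The median log2 fold change of the 304 X-linked genes tested was 0.12, close to that of all genes, and 5 of the 304 had a lower value than GK. The ratio of GPD1 to GK within an animal was 4.04, 5.13 and 3.98 on the log2 scale in B1, B2 and B3, and 6.49, 8.66 and 8.12 in L1, L2 and L3. With 0.1 added to each FPKM, GPD1 averaged 20.9 times GK in the Shandong black animals and 216 times GK in the Luxi animals. GK was low in Luxi cattle, so these multiples depend on the 0.1 added. The breed difference was 3.37 on the log2 scale, and 3.54 with 0.01 added. With 0.1 added, the exact two-sided permutation p was 0.1 and its adjusted p was 0.167.

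GPAM is the glycerol 3-phosphate acyltransferase of the mitochondrial outer membrane and adds the first fatty acid. It lies on the minus strand of chromosome 26, from 32685539 to 32742398. Its FPKM was 17.2, 20.2 and 21.4 in B1, B2 and B3, and 21.1, 4.08 and 15.3 in L1, L2 and L3. The Shandong black animals were close together, while L1 was among them and L2 was far below. The log2 fold change was -0.74 (SE 0.51) with an limma adjusted p of 0.427, and it ranged from -1.17 without L1 to -0.11 without L2.

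GPAM had 15 reference transcripts listed, of which 7 had a mean FPKM of 0.5 or more in a breed, and assembled transcripts carried 24.4 to 54.0% of the gene. The 21-exon reference transcript rna70318, which starts at the upstream end, was at 1.90, 3.90 and 4.12 in Shandong black cattle and at 2.27, 0.40 and 1.01 in Luxi cattle. The 21-exon transcript rna70328, which starts 15808 bases further downstream, was at 0.15, 0.49 and 0.30 in Shandong black cattle and at 4.96, 1.29 and 3.01 in Luxi cattle. These transcripts, singled out of the 7, thus differed in opposite directions on average, without overlap for rna70328 and with overlap for rna70318. When each of 10948 reference transcripts was tested on its own FPKM, a test added after the data were seen, the log2 fold changes were -0.995 (adjusted p = 0.249) and 1.54 (adjusted p = 0.121), and neither was called. The others of the 7 all overlapped between the breeds. Their mean FPKM in Shandong black against Luxi cattle was 0.87 against 0.80 (rna70316), 0.63 against 0.22 (rna70317) and 0.58 against 1.16 (rna70326). For rna70327 it was 0.52 against 0.20, and for rna70329 it was 1.26 against 1.42.

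AGPAT2 and AGPAT3 are acyltransferases of the endoplasmic reticulum for lysophosphatidate, AGPAT2 being the one whose loss causes a lack of fat tissue in humans. AGPAT2 lies on the minus strand of chromosome 11, from 104087838 to 104100209. Its FPKM was 19.1, 32.5 and 27.0 in B1, B2 and B3, and 25.4, 50.3 and 37.0 in L1, L2 and L3. The values overlapped, and the log2 fold change of 0.48 (SE 0.32) had an limma adjusted p of 0.414. All of it came from 1 reference transcript of 6 exons.

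AGPAT3, on the plus strand of chromosome 1 from 143996689 to 144025714, was listed at 0, 7.77 and 8.48 in B1, B2 and B3, and at 10.8, 0.07 and 12.9 in L1, L2 and L3. Where it was above 0.07, 99.5 to 100% of its FPKM was in assembled transcripts, and the reference transcript was at 0.07 or less in every animal. In B1 and L2 the assembly joined the gene to exons that begin 54771 and 54767 bases upstream of the annotated start. Those transcripts, at 3.23 and 6.03, had 1271 of their 6461 and 6964 bases on annotated exons, below the 50% required here for counting them to the gene. With a requirement of 10%, a change made after the data were seen, AGPAT3 was at 3.23, 7.77 and 8.48 against 10.8, 6.10 and 14.3, and no animal was near 0. Its log2 fold change was then 0.62 (SE 0.39, limma adjusted p = 0.389), in place of 0.36 (SE 1.19, adjusted p = 0.884). The ratio of AGPAT2 to AGPAT3 carries the same limit and did not separate the breeds (exact two-sided permutation p = 0.9).

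LPIN1, the main lipin of muscle and fat, removes the phosphate from phosphatidate to give diacylglycerol, and also acts as a coactivator of transcription in the nucleus. It lies on the minus strand of chromosome 11, from 86081388 to 86211617. Its FPKM was 15.6, 9.70 and 14.0 in B1, B2 and B3, and 19.6, 29.4 and 20.8 in L1, L2 and L3. All Luxi animals were higher, and the ratio of the means was 1.78. The log2 fold change was 0.79 (SE 0.26, 95% confidence interval 0.18 to 1.39) with an limma adjusted p of 0.140.

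Of the 11 reference transcripts of LPIN1 listed, 2 had a mean FPKM of 0.5 or more in a breed, and they differ in where they start. The 22-exon transcript rna34397 starts at 86211597 and was at 1.87, 3.54 and 2.20 in B1, B2 and B3, and at 14.0, 21.2 and 20.3 in L1, L2 and L3. The 21-exon transcript rna34401 starts at 86152136, 59461 bases further downstream, and was at 11.5, 3.28 and 11.0 in Shandong black cattle and at 5.19, 6.63 and 0.14 in Luxi cattle. The upstream form thus made up 11.99, 36.5 and 15.7% of LPIN1 in the Shandong black animals and 71.5, 72.2 and 97.8% in the Luxi animals. The downstream form made up 73.7, 33.8 and 78.7% against 26.5, 22.6 and 0.69%, where B2 lay near the Luxi animals L1 and L2. With the 10% requirement for assembled transcripts, LPIN1 was at 28.0 in L1 in place of 19.6, so both shares of L1 would be smaller. The log2 fold change of the gene was then 0.95 (limma adjusted p = 0.0877).

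In the limma fit over 10948 reference transcripts, which was added after the data were seen and called 0.913% of them, the upstream transcript of LPIN1 was called, with the higher level in the Luxi animals. It had a log2 fold change of 2.47 (SE 0.27, 95% confidence interval 1.83 to 3.12) with a Benjamini-Hochberg adjusted p of 0.0245. It was the only called one of the 11 reference transcripts of the 10 genes that were tested. The call was lost without B1 (adjusted p = 0.0923), B3 (0.159), L2 (0.0813) or L3 (0.0619), while the log2 fold change stayed between 2.34 and 2.67. The downstream transcript had a log2 fold change of -1.19 (SE 0.81, adjusted p = 0.468).

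The exons of the starts show the same order without the split into transcripts. The first exon of the upstream form (86211473 to 86211597) had a read depth per aligned gigabase of 1.52, 1.76 and 1.84 in B1, B2 and B3, and 7.91, 9.29 and 9.58 in L1, L2 and L3, a ratio of the means of 5.22. Its second exon (86177620 to 86177676) had 2.75, 3.88 and 2.39 against 13.5, 21.6 and 18.1, a ratio of 5.90. At both exons each Luxi animal was well above each Shandong black animal. The first exon of the downstream form (86151991 to 86152136) had 6.40, 2.89 and 4.79 against 4.23, 3.26 and 0.08, and the breeds overlapped. Over the 20 exons that both forms share, the ratio of the means had a median of 1.80 and ran from 1.16 to 2.82, and the breeds did not overlap in 17 of them. The difference between the breeds was therefore larger at the upstream exons than at every shared exon.

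**Figure D2:**
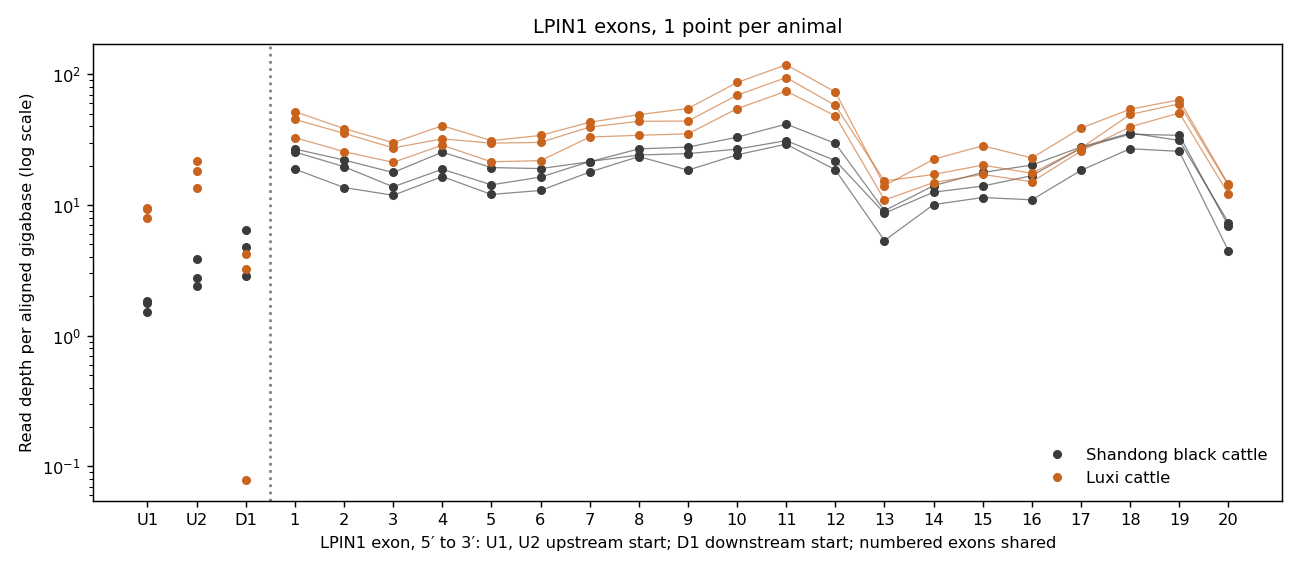
Read depth of the LPIN1 exons per aligned gigabase on a log axis, in the order of transcription, with 1 point per animal. U1 and U2 belong to the upstream form, D1 is the first exon of the downstream form and 1 to 20 are shared. The Luxi animals (orange) are 5.22 and 5.90 times higher on average at U1 and U2, and the breeds overlap at D1.

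LPIN2, a second lipin on the minus strand of chromosome 24 from 37138136 to 37214298, was at 0.70, 1.06 and 0.97 in B1, B2 and B3, and at 0.87, 0.63 and 1.83 in L1, L2 and L3. The breeds overlapped, and the log2 fold change was 0.11 (SE 0.24, limma adjusted p = 0.825). In B2 and L3 all of its FPKM was in assembled transcripts. With 0.1 added to each FPKM, LPIN1 stood 8.47 to 40.6 times above LPIN2 within an animal. This ratio did not separate the breeds (exact two-sided permutation p = 0.4, adjusted p = 0.5).

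DGAT1 and DGAT2 are unrelated enzymes of the endoplasmic reticulum that add the last fatty acid to diacylglycerol. DGAT2 lies on the plus strand of chromosome 15, from 55160672 to 55193146. Its FPKM was 4.90, 9.04 and 7.35 in B1, B2 and B3, and 4.28, 2.02 and 2.85 in L1, L2 and L3. All Luxi animals were lower, though B1 and L1 were close, and the ratio of the means was 2.32 in favour of Shandong black cattle. Its log2 fold change was -1.002 (SE 0.28, 95% confidence interval -1.66 to -0.35) with an limma adjusted p of 0.103. Without L1 it was -1.21 (adjusted p = 0.0452) and passed both thresholds. DGAT2 was called under no other alternative, and the highest adjusted p was 0.307, without B3. With the 10% requirement for assembled transcripts, B1 and L1 were both at 5.48 and the log2 fold change was -0.88.

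DGAT1 lies on the plus strand of chromosome 14, from 603981 to 614153. Its FPKM was 1.10, 1.08 and 1.94 in B1, B2 and B3, and 1.29, 0.70 and 0.87 in L1, L2 and L3. The values overlapped, and the log2 fold change was -0.27 (SE 0.21, limma adjusted p = 0.487). The last 132 bases of its span lie under HSF1 on the opposite strand, whose FPKM was 54.0, 54.5 and 57.2 in Shandong black and 17.2, 53.3 and 45.2 in Luxi cattle. DGAT2 stood above DGAT1 in every animal. With 0.1 added to each FPKM, the log2 ratio was 2.06, 2.96 and 1.87 in B1, B2 and B3, and 1.65, 1.41 and 1.60 in L1, L2 and L3. That is 4.91 times on average against 2.94 times. The breeds did not overlap in this ratio (exact two-sided permutation p = 0.1, adjusted p = 0.167).

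**Figure D3:**
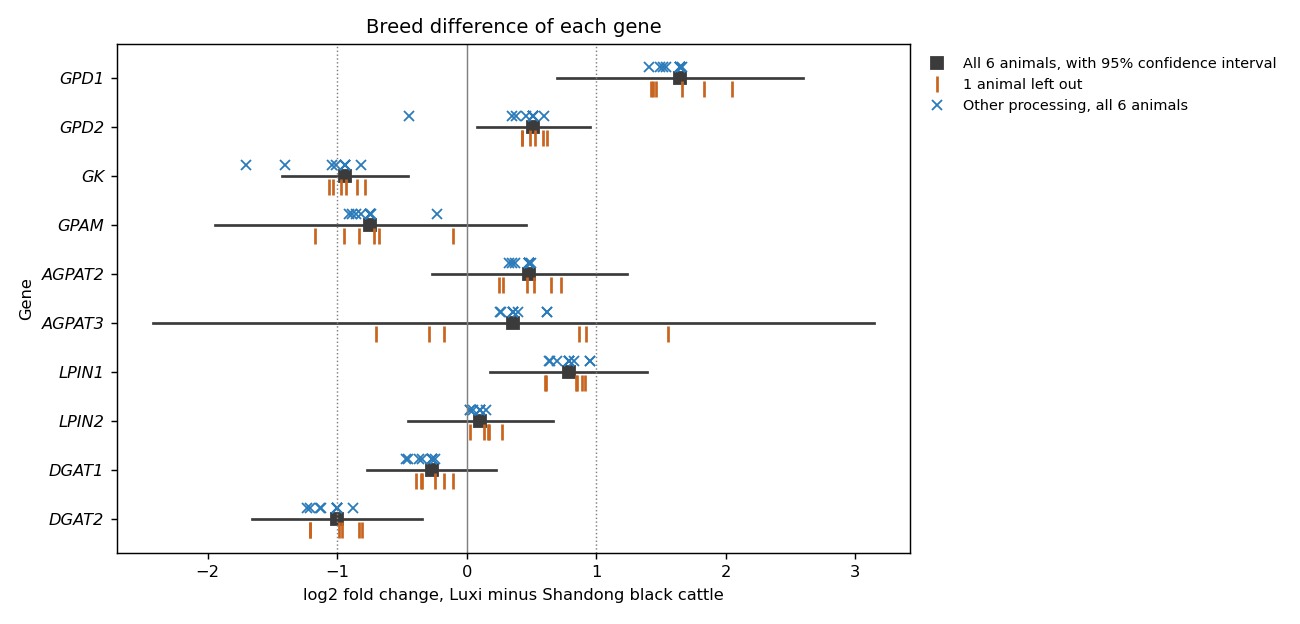
log2 fold change of each gene, Luxi minus Shandong black cattle. Squares with lines are the fit on all 6 animals with its 95% confidence interval, orange ticks are fits without 1 animal and blue crosses are other processing. GPD1 stays above 0 throughout, GK and DGAT2 stay below 0, GPD2 turns to -0.44 with reference transcripts only, and AGPAT3 falls on both sides of 0 as animals are left out.

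The 4 genes that were lower in Luxi cattle on average were DGAT2, GK, GPAM and DGAT1, and their levels stand here beside the fat cell markers. Within Luxi cattle the summed FPKM of the fat cell markers was 4.79 in L1, 14.8 in L2 and 18.7 in L3, so that L1 had the least, while DGAT2, GK, GPAM and DGAT1 were each highest in L1. Within Shandong black cattle that sum was 180 in B1, 111 in B2 and 152 in B3. There GK and DGAT1 were lowest in B2, the animal with the least fat cell signal, while DGAT2 was highest in B2 and GPAM and DGAT2 were lowest in B1. GPD1 was highest in L2 and L3, which had the highest fast fibre sums, and lowest in B1, which had the lowest. L1 had more GPD1 than B2 (76.2 against 54.7) at a slightly lower fast fibre sum (3968 against 4093). Of the fast fibre markers, MYLPF and TNNC2 were lower in L1 than in B2, while MYH1, MYH2, TNNT3, TNNI2 and ATP2A1 were higher. The part of either cell type in these levels was not tested.

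The other genes of glycerolipid metabolism were 44 genes in 6 lists, of which 39 were listed by name and 30 were tested. One was called lower in Luxi cattle and none was called higher. Of the 30, 21 had a log2 fold change above 0 and 9 below, with a median of 0.20 beside 0.13 for all genes tested, and the breeds did not overlap in 13. Over all genes tested, 2.57% were called and 29.1% did not overlap. The called gene was LDAF1, listed as TMEM159, which assembles with seipin at the sites where lipid droplets form. Its FPKM was 86.1, 51.7 and 74.2 in B1, B2 and B3, and 5.19, 8.02 and 17.7 in L1, L2 and L3, with the Luxi animals far below. The log2 fold change was -2.79 (SE 0.42) with a Benjamini-Hochberg limma adjusted p of 0.0269. The call was lost without a filter on FPKM (adjusted p = 0.0744) and without B1 (0.114), B3 (0.125) or L2 (0.0806), while the log2 fold change ran from -3.23 to -2.44.

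Among the lists, the supply of glycerol and glycerol 3-phosphate had 6 genes tested with a median of 0.68, 5 of them above 0. TPI1, the triose phosphate isomerase that interconverts dihydroxyacetone phosphate and glyceraldehyde 3-phosphate, had the highest log2 fold change. It was at 199, 336 and 249 in B1, B2 and B3, and at 482, 1408 and 1043 in L1, L2 and L3, without overlap (log2 fold change 1.80, SE 0.48, limma adjusted p = 0.0956). It was called with quantile normalization and without L1. The gene of this list below 0 was AQP7, a glycerol channel, at 129, 68.7 and 107 against 37.2, 45.2 and 70.4 (log2 fold change -0.99, adjusted p = 0.165).

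The acyltransferases had 5 genes tested with a median of 0.13. GPAT3, the glycerol 3-phosphate acyltransferase of the endoplasmic reticulum that is abundant in fat cells, was at 24.3, 5.25 and 18.1 in B1, B2 and B3, and at 1.82, 2.05 and 2.71 in L1, L2 and L3. The breeds did not overlap, with B2 nearest to the Luxi animals. Its log2 fold change was -2.19 (SE 0.49, limma adjusted p = 0.0615), and it was called with size factors, with quantile normalization and without B2. GPAT4, the other such enzyme of the endoplasmic reticulum, was at 11.5, 10.4 and 11.9 against 10.4, 10.4 and 12.3, with a log2 fold change of -0.03 (SE 0.18).

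In the remaining lists no other gene was called. The phosphatidate phosphatases and their regulators had 4 genes tested with a median of 0.05, and lipid droplet assembly had 4 with a median of -0.07, LDAF1 among them. The phospholipid branch had 7 with a median of 0.03, where CDS1, which draws phosphatidate away into phospholipids, was lowest at -1.20 (SE 0.42, limma adjusted p = 0.157). The diacylglycerol kinases, which turn diacylglycerol back into phosphatidate, had 4 with a median of 0.58, all above 0.

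**Figure D4:**
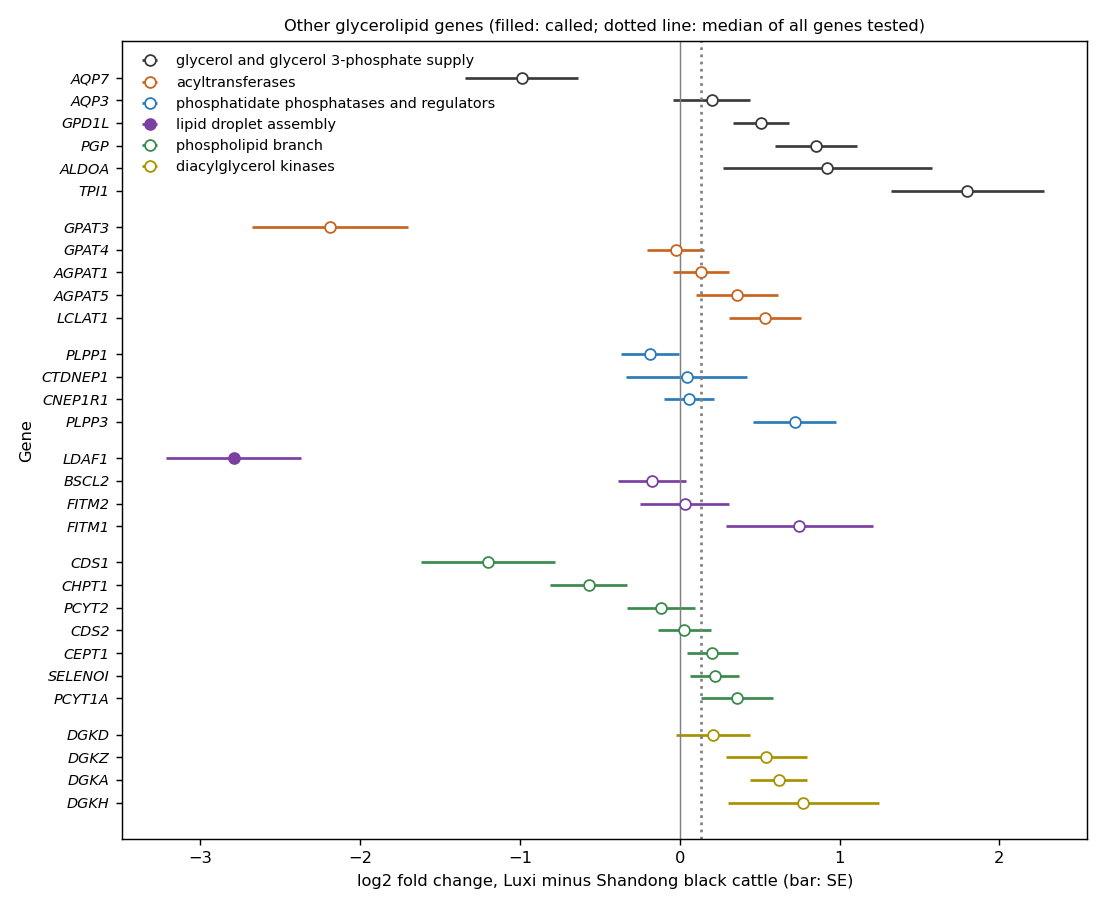
log2 fold change of the 30 other glycerolipid genes tested, Luxi minus Shandong black cattle, with bars of 1 SE, grouped by role and coloured by list. The filled point is the called gene LDAF1 at -2.79, GPAT3 follows at -2.19, TPI1 is highest at 1.80, and the dotted line is the median of all genes tested at 0.13.

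The genes whose pattern over the 6 animals was most like that of GPD1 and DGAT2, which had the largest fold changes of the 10 on the scale of log2(FPKM + 1), were taken from the other 9780 genes tested. The measure was the root mean square difference of log2(FPKM + 1) after each gene was centred on its mean over the 6 animals, and since it was taken over both breeds it reads the breed difference again. With a pseudocount of 0.1 the fold change of GK (-1.70) was the largest of the 10 in size, ahead of GPD1 (1.67) and DGAT2 (-1.21). For GPD1 the closest were SHISA2 at 0.06, PKM at 0.07, TPI1 at 0.14, IRAK2 at 0.15 and LOC618664 at 0.15, where the root mean square of GPD1 itself was 0.94. PKM, the muscle pyruvate kinase, was at 161, 251 and 197 in B1, B2 and B3, and at 352, 927 and 813 in L1, L2 and L3, so that L1 stood between the Shandong black animals and the other Luxi animals as in GPD1. For DGAT2 the closest were G0S2 at 0.13, FNBP1 at 0.15, HADHA at 0.17, ABCG2 at 0.17 and ABCA10 at 0.19, where the root mean square of DGAT2 itself was 0.60. G0S2, an inhibitor of the triglyceride lipase PNPLA2, was at 1.01, 2.91 and 2.36 against 0.67, 0.13 and 0.25, with B2 highest and L2 lowest as in DGAT2.

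**Figure D5:**
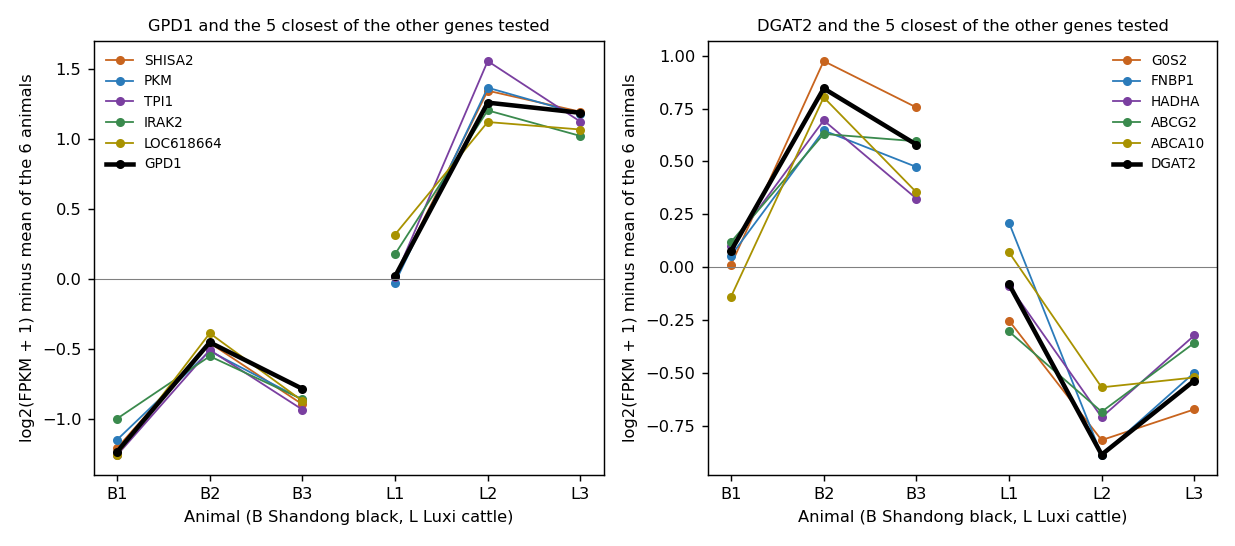
log2(FPKM + 1) of each gene minus its mean over the 6 animals, for GPD1 (left) and DGAT2 (right) in black and the 5 closest of the other genes tested in colour. Each point is 1 animal. The lines of the GPD1 panel have B1 lowest and L2 highest, and those of the DGAT2 panel have B2 highest and L2 lowest.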

How the data were processed

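Total RNA of the muscle was sequenced on an Illumina HiSeq platform. The authors cleaned the reads with Fastp, mapped them to ARS-UCD1.2 by HISAT and ran StringTie with the annotation on each library. Per the file headers the version was 1.3.3b. They deposited the coverage, FPKM and TPM of each transcript and the coverage of each exon, and replicates were not pooled. Whether the reads kept their strand was not settled here. Gene FPKM was summed over reference transcripts and over those assembled transcripts of its strand that had 50% or more of their length on its exons. The transcripts left out carried 21.6 to 29.8% of the FPKM. The aligned bases of a library are the ratio of coverage to FPKM. No read counts were used and no counting error is given.

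The fit used limma 3.58.1 in R 4.3.3 (lmFit, then eBayes with a trend in the variance, no covariate) on log2(FPKM + 1). On simulated data for the 9781 genes it called 65% of 200 genes changed by 1.5 on the log2 scale and 93.5% of 200 changed by 3. Ratios used a pseudocount of 0.1 and Python 3 with pandas. Alternatives were a pseudocount of 0.1, no filter, a mean FPKM of at least 5, size factors, TPM, quantile normalization, no trend, a replicate block, reference transcripts only and leaving out each animal. The 10% requirement and the transcript fit were added after the data were seen. The genes named are the 10 genes, the called and the 3 most changed of the other glycerolipid genes and the marker lists. The 5 genes closest to each of the 2 of the 10 with the largest fold change on the log2(FPKM + 1) scale are named. Reference transcripts are named by identifier for GK, GPAM and LPIN1 only, where the average FPKM of the transcript reached 0.5 in a breed. AQP7, GPAT4, CDS1, HSF1 and LOC104972400 were named after their values were seen. The genes and lists were chosen with earlier results of these data known. VWF, PAX7 and ALB of the markers were not listed by name.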

Additional observations from a re-analysis of the deposited data

How the results depend on the processing

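Of 154 log2 fold changes of the 10 genes under alternatives, 144 kept their direction and their side of the thresholds, 6 were newly called and 4 were reversed. The reversed ones were GPD2 with reference transcripts only (-0.44) and AGPAT3 without B1 (-0.70), without L1 (-0.18) and without L3 (-0.29), whose range was -0.70 to 1.55 as each animal was left out. The number of the 10 genes called was 1 with size factors, 1 with TPM and 1 with quantile normalization, and from 0 to 3 as each animal was left out. Of the other glycerolipid genes, 0 were called without a filter, 2 with size factors and 3 with quantile normalization, and from 0 to 4 as each animal was left out. Of all genes, 63 were called without a filter, 134 at a mean FPKM of at least 5, 163 with reference transcripts only and 135 with the replicate block, against 251 in the fit reported, and from 3 to 593 as each animal was left out. The fewest were left without B3 and the most without L1. The 251 were 151 higher and 100 lower in Luxi cattle, but 115 and 149 with size factors and 124 and 164 with quantile normalization. The replicate block called none of the 10 genes and ended the call of the upstream LPIN1 transcript (log2 fold change 2.47, adjusted p = 0.117), whose log2 fold change was 2.34 to 2.67 as each animal was left out. Same-numbered animals are different animals, and their deviations from the breed means correlated at 0.07 to 0.09, above the -0.11 to 0.01 of the other pairs, so each animal correlated best with its own number. The difference in the ratio of AGPAT2 to AGPAT3 was -0.12 on the log2 scale and was reversed without B1 (1.79), without L1 (1.08) and without L3 (0.94), with a range of -2.40 to 1.79. The other 4 ratios kept their direction under every alternative run, with ranges as each animal was left out of 0.87 to 1.39 for GPD1 over GPD2, -0.96 to -0.41 for DGAT2 over DGAT1, 0.19 to 1.15 for LPIN1 over LPIN2 and 2.92 to 4.002 for GPD1 over GK. Beyond leaving out animals, fewer genes tested and the requirement for assembled transcripts, the cause of these shifts was not tested. The precision is limited by 3 animals per breed, with sex, origin and breed not separable.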
